A study of Mus musculus with 8 samples.

Results

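The Slc25 genes code for the mitochondrial carriers, and their transcripts were followed in gastrocnemius (GAS) muscle 3 weeks after knockdown of MYTHO. Members were all genes whose symbol on the array begins with Slc25a and a number. There were 47 such genes, each measured by 1 of the 22206 probe sets, and none reached the ceiling of the table. The rule went by the name of a gene, with the brightest probe set to be kept for each, a step that had no effect here. The study injected an adeno-associated virus (AAV) of serotype 1 into GAS of male C57/Bl6j mice, labelled 14 weeks old. The virus carried, under the U6 promoter, a short hairpin RNA against the transcript of MYTHO (AAV sh-RNA MYTHO) or a scramble hairpin (AAV sh-RNA scrmb), with 4 muscles in each group. The scramble virus went into the opposite leg of the same animals, called A to D here, so both groups carried a virus. MYTHO is a regulator of autophagy that the array lists as D230025D16Rik. Since the MYTHO virus always went into the right leg, side and hairpin cannot be told apart. The U6 promoter is active in most cell types, so it does not itself restrict the hairpin to muscle fibres. The study describes the serotype as one with tropism for muscle cells. The RNA came from a whole piece of muscle.

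Mitochondrial carriers sit in the inner mitochondrial membrane, and each moves a small set of metabolites between the cytosol and the matrix. They bring in ADP, phosphate, acylcarnitines, amino acids and cofactors and export ATP, and they carry the malate-aspartate shuttle that moves reducing equivalents into mitochondria. Muscle depends on them because its ATP is made in the matrix and used at the sarcomere. A few members have other homes, such as SLC25A17 in peroxisomes and SLC25A46 in the outer mitochondrial membrane.

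The knockdown itself was clear in all animals. From animal A to animal D, D230025D16Rik had log2 signals of 11.35, 11.31, 10.78 and 11.05 with the scramble hairpin, and of 8.16, 8.20, 8.80 and 8.08 with the MYTHO hairpin. The change was -2.81 in log2 (standard error, SE, 0.21), at a limma adjusted p of 0.00044. Median log2 signals of all probe sets lay between 6.39 and 6.47 on the 8 arrays.

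No Slc25 gene passed an adjusted p under 0.05 over all probe sets in limma, where 6 probe sets (0.027%) did. At an unadjusted p under 0.05, 4 of the 47 were higher in MYTHO muscle and 1 was lower. The 4 were Slc25a42, a coenzyme A carrier, Slc25a22, a glutamate carrier, Slc25a12, the aspartate/glutamate carrier of muscle and brain, and Slc25a39, a glutathione carrier. The one with lower signal was Slc25a54. The 4 make up 8.51% of the members, against 4.81% of all probe sets that were higher at this p, and the 1 makes up 2.13%, against 7.58% that were lower. For the same 4 genes, every MYTHO array lay above every scrmb array, again 8.51% of the members, against 2.59% of all probe sets. No member had all MYTHO arrays below all scrmb arrays, where 3.87% of all probe sets did. The median log2 fold change over the 47 was 0.07, beside -0.005 over all probe sets, with 29 members above 0, 17 below and 1, Slc25a46, at 0. In all 4 animals 8 members were higher in the MYTHO leg, 17% of the members against 8.94% of all probe sets, and 3 were lower, 6.38% against 10.8%. With animal as a block, 5 members were higher and 1 lower at an unadjusted p under 0.05, Slc25a25 being the addition, where 4.94% and 7.66% of all probe sets were, and again none passed after adjustment.

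**Figure D1:**
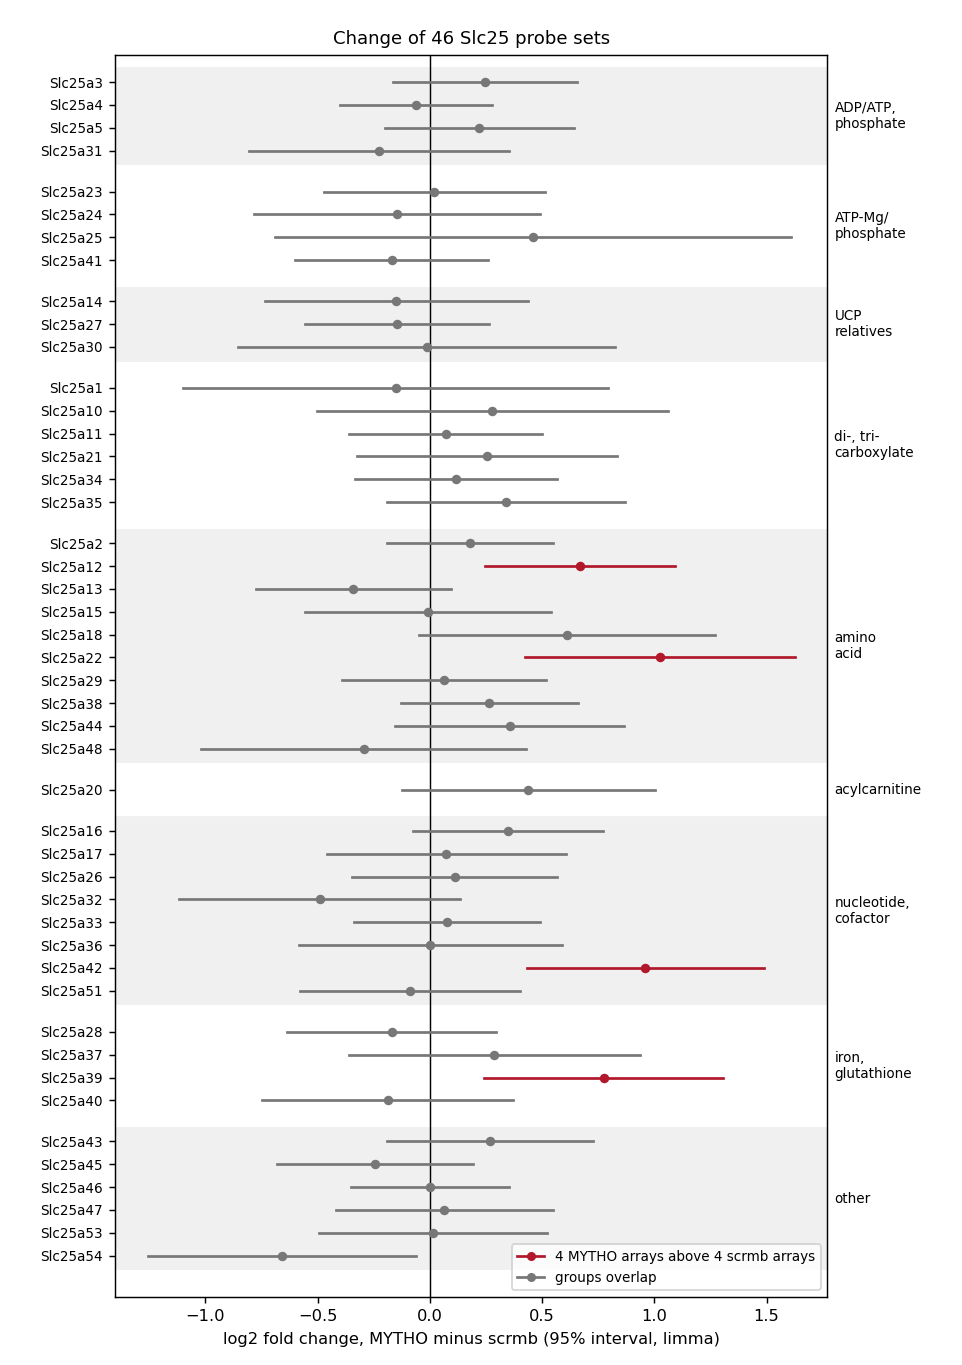
Log2 fold change (MYTHO minus scrmb, x axis) of 46 Slc25 genes, grouped by the role of the carrier (y axis), with the limma estimate as a point and its 95% interval as a line. The 4 genes in red, Slc25a12, Slc25a22, Slc25a42 and Slc25a39, have intervals above 0 and no overlap between the groups of 4 arrays. Slc25a54 at -0.66 is the only member whose interval lies below 0.

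A region before a listed transcription start is shown for these 4 genes, because they were the members whose groups did not overlap. Slc25a3, the phosphate carrier, is set beside them because it was the only member that held more than 1 of the motifs searched. Each line gives the 250 bases upstream of the first listed start, from RefSeq on GRCm38.p6, the assembly also known as mm10, read 5′ to 3′ on the strand of the gene, which is the minus strand for all 5. The windows lie at chr8:70212282-70212531, chr7:141437875-141438124, chr2:71367756-71368005, chr11:102407518-102407767 and chr10:91123968-91124217. The listed starts of Slc25a42 and Slc25a22 are the 5′ ends of the genes as RefSeq spans them. Those of Slc25a12, Slc25a3 and Slc25a39 lie 26, 79 and 1158 bases inside the span, so the window of Slc25a39 lies wholly within the gene. Capitals mark matches to the motifs given below.
Slc25a42: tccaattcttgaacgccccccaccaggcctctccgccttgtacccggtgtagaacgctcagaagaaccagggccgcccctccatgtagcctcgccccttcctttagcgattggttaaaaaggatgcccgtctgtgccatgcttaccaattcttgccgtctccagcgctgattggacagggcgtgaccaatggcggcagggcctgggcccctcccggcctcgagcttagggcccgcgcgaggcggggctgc
Slc25a22: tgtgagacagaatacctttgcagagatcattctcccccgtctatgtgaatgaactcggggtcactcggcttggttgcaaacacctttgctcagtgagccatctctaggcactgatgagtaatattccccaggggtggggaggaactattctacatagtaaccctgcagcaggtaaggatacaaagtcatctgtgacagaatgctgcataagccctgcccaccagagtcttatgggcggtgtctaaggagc
Slc25a12: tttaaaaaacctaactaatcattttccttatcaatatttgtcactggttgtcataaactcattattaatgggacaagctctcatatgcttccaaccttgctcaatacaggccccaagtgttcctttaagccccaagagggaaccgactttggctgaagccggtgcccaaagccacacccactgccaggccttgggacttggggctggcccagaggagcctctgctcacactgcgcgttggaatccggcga
Slc25a39: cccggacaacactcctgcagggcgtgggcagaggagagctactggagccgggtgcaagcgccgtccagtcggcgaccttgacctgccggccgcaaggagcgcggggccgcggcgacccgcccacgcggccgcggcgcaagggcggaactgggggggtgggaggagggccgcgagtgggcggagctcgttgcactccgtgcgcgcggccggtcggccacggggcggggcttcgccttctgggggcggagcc
Slc25a3: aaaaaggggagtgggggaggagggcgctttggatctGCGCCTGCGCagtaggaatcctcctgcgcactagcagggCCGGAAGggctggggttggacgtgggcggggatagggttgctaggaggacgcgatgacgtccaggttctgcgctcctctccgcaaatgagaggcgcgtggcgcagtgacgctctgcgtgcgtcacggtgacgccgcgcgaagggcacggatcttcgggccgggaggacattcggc

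The motifs, searched on both strands, were TCAAGGTCA (bound by estrogen-related receptors), the 10-letter NRF1 motif, which is GCGC and TGCGC with any 1 letter between them, and CCGGAAG (bound by ETS factors such as GABP). These factors are known regulators of mitochondrial genes. Of the 47 members, 36 had a listed promoter. TCAAGGTCA occurred in 0 of the 36 and in 0.366% of 27025 promoters of this length. The NRF1 motif was found in Slc25a3 and Slc25a31, 5.56% of the 36 beside 3.86% of all promoters. CCGGAAG was found in Slc25a3, Slc25a4, Slc25a17, Slc25a20, Slc25a38 and Slc25a54, 16.7% of the 36 beside 7.05% of all. None of the 4 windows of Slc25a42, Slc25a22, Slc25a12 and Slc25a39 held any of the 3 motifs, and their GC content ran from 49.6% in Slc25a12 to 77.2% in Slc25a39. For Slc25a39 this says nothing of the bases before the 5′ end of the gene. Slc25a22 has 3 listed starts, and only the window of the first was searched. A match describes letters only.

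Among the carriers that exchange ADP, ATP and phosphate, none of the 4 members had an unadjusted p under 0.05. Slc25a4, the ADP/ATP carrier of heart and skeletal muscle, had log2 signals of 19.58, 19.58, 19.58 and 19.56 in the scrmb arrays and 19.45, 19.58, 19.44 and 19.58 in the MYTHO arrays. These values lay close to the ceiling of the table, 19.93, and only 27 to 37 probe sets were brighter on any array, so the probe set had little room to show an increase. It read 19.58 on 5 of 8 arrays and higher on none. Its log2 fold change was -0.06, with a 95% interval from -0.40 to 0.28. Slc25a5, the ADP/ATP carrier found in most tissues, was higher in the MYTHO leg of 4 of 4 animals, yet the groups overlapped. Mean signals were 11.95 ± 0.29 (SD, n = 4) with scrmb and 12.17 ± 0.16 (SD, n = 4) with MYTHO, and the limma adjusted p was 0.703. Slc25a31, the ADP/ATP carrier of the testis, stayed between 3.88 and 5.17 on all arrays. The phosphate carrier Slc25a3 had means of 17.07 ± 0.19 (SD, n = 4) with scrmb and 17.32 ± 0.24 (SD, n = 4) with MYTHO. Its log2 fold change of 0.25 had a 95% interval from -0.17 to 0.66.

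Calcium-regulated carriers that swap ATP-Mg for phosphate set the size of the adenine nucleotide pool in the matrix. Slc25a25, the member of this group that muscle is known to use, had the widest range of any Slc25 gene, 2.71 in log2. Signals were 7.55, 9.57, 7.38 and 8.45 in the scrmb legs and 8.36, 10.09, 7.71 and 8.63 in the MYTHO legs, from animal A to animal D. Both legs of animal B were the highest and both legs of animal C the lowest of their groups. The standard deviation (SD) of the means of both legs was 1.00 over the 4 animals, against 0.27 for the differences between legs. The log2 fold change was 0.46 with a limma adjusted p of 0.780. With animal as a block the unadjusted p was 0.0385 and the limma adjusted p 0.369. Slc25a23, Slc25a24 and Slc25a41 had log2 fold changes of 0.02, -0.15 and -0.17, none with an unadjusted p under 0.05. The relatives of the uncoupling proteins, Slc25a14, Slc25a27 and Slc25a30, ran from -0.15 to -0.02 in log2 fold change.

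**Figure D2:**
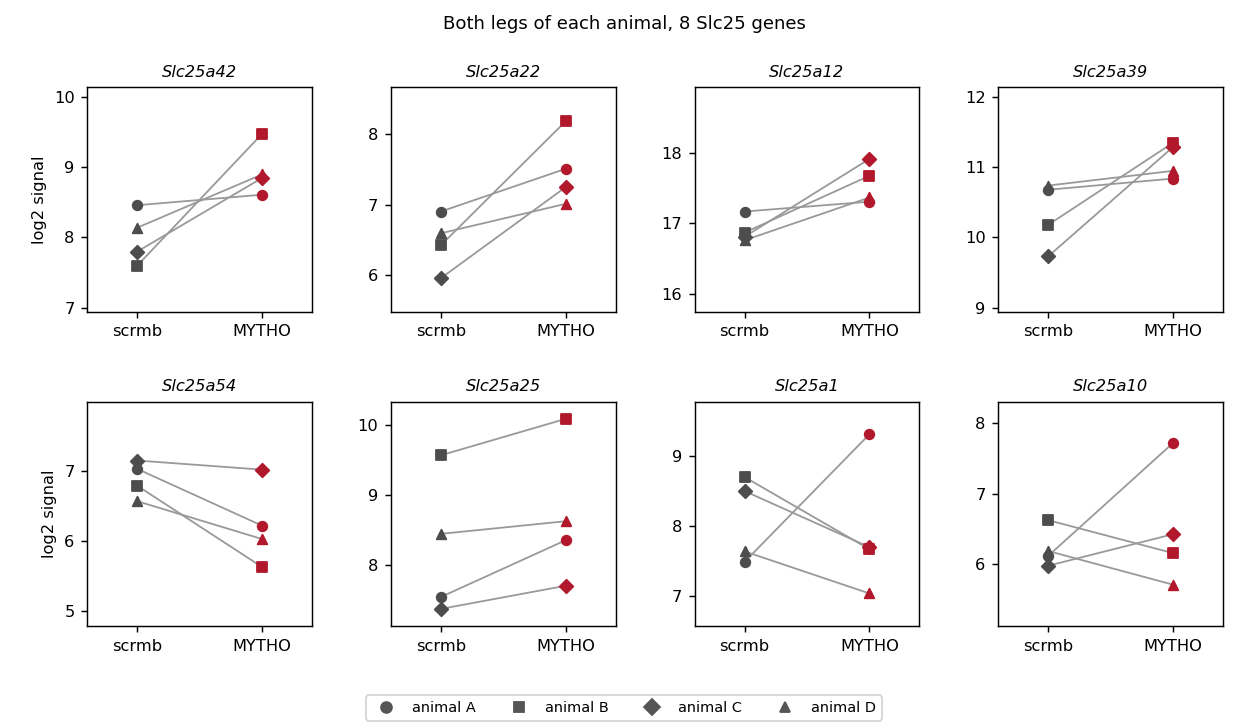
Log2 signal (y axis) of 8 Slc25 genes in the scrmb and MYTHO legs (x axis), with a line joining both legs of an animal and a symbol for each animal; every panel spans the same number of log2 units. Slc25a42, Slc25a22, Slc25a12 and Slc25a39 are higher in the MYTHO leg of all 4 animals, Slc25a25 differs mainly between animals, and Slc25a1 and Slc25a10 are highest in the MYTHO leg of animal A.

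The 10 carriers of aspartate, glutamate and other amino acids held 2 of the 4 members with higher signal. This was 20% of the group, beside 4.81% of all probe sets higher at an unadjusted p under 0.05 in limma. Slc25a12, also called aralar, is the calcium-sensitive carrier that exchanges aspartate for glutamate in the malate-aspartate shuttle. It lies on chromosome 2 from 71274270 to 71367781. The scrmb legs had log2 signals of 17.17, 16.87, 16.81 and 16.76, and the MYTHO legs 17.31, 17.68, 17.92 and 17.37, with the smallest difference in animal A. Averaging the arrays gave 16.90 ± 0.18 (SD, n = 4) for scrmb and 17.57 ± 0.28 (SD, n = 4) for MYTHO. This amounts to a log2 fold change of 0.67 with an SE of 0.19, at an unadjusted p of 0.00503 and a limma adjusted p of 0.207. Under eBayes with trend and robust the limma adjusted p was 0.0475 in a fit that called 160 of the 22206 probe sets against 6 in the fit without them, while over all 21 alternatives it ran from 0.0475 to 0.595.

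Slc25a22 brings glutamate into the matrix together with protons and lies on chromosome 7 from 141429749 to 141437874. In the scrmb legs log2 signals were 6.90, 6.42, 5.95 and 6.59, and in the MYTHO legs 7.51, 8.19, 7.25 and 7.01. The lowest MYTHO array, of animal D, lay just above the highest scrmb array, of animal A. These signals were not bright, with 6536 to 13165 of the 22206 probe sets brighter on an array. The log2 fold change was 1.02 with an SE of 0.28, a fold of 2.03, and the limma adjusted p was 0.168. It was the 1 member to reach the cut-off used in the study, a fold of 2 or more in either direction together with an unadjusted p under 0.05, which 1.51% of all probe sets reached. With a fold minimum of 1.5 in its place, 5 members and 7.44% of all probe sets did. At the 2-fold cut-off of the study, the count was 0 without scrmb C, MYTHO B or both legs of animal B or C. It was 2, with Slc25a42 added, without scrmb A, scrmb D, MYTHO A or both legs of animal A or D.

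Close relatives of these carriers had other values. Slc25a13, or citrin, the aspartate/glutamate carrier of liver, was lower in the MYTHO leg of 4 of 4 animals, at 5.31 ± 0.32 (SD, n = 4) and 4.97 ± 0.17 (SD, n = 4). Its log2 fold change was -0.34, with an unadjusted p of 0.111 and a limma adjusted p of 0.519. The log2 fold change of Slc25a13 was -0.19 without scrmb B and -0.13 without both legs of animal B. Slc25a18, the other glutamate carrier, had dim signals of 3.70, 3.83, 3.95 and 4.66 in scrmb and 4.31, 5.49, 4.16 and 4.63 in MYTHO, with a log2 fold change of 0.61 and an unadjusted p of 0.0656. Without MYTHO B the log2 fold change was 0.33, and the unadjusted p was under 0.05 after median centring and without scrmb D, MYTHO A, MYTHO C or both legs of animal D. The differences between these relatives were not tested. Among the rest of the amino acid carriers, Slc25a44, which takes branched-chain amino acids, and Slc25a38, which takes glycine for heme synthesis, had log2 fold changes of 0.35 and 0.26. For the ornithine carriers Slc25a15 and Slc25a2 they were -0.01 and 0.18, and for Slc25a29, a carrier of basic amino acids, 0.06. Slc25a48, which was counted with this group, lay between 3.21 and 3.57 on 7 arrays and at 4.98 in scrmb A, near the lower end of the table at 2.38.

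Of the 9 measured carriers of nucleotides and cofactors, 1 had an unadjusted p under 0.05. It was higher, which makes 11.1% of the group, beside 4.81% of all probe sets. Slc25a42 brings coenzyme A into the matrix in exchange for adenine nucleotides and lies on chromosome 8 from 70184340 to 70212281. Scrmb legs gave log2 signals of 8.46, 7.60, 7.80 and 8.14, and MYTHO legs 8.61, 9.48, 8.85 and 8.90. The MYTHO legs were above all scrmb legs, but in animal A the leg difference was 0.15 against 1.88 in animal B. The log2 fold change was 0.96 with an SE of 0.24, a fold of 1.95, beside an SD of 0.38 among the scrmb and 0.37 among the MYTHO arrays (n = 4 each), and the limma unadjusted p of 0.00192 was the lowest of the family, with an adjusted p of 0.149.

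The others of this group given here had log2 fold changes from -0.49 to 0.35. Slc25a32, which carries folate and FAD, was at -0.49 and was lower in 3 of 4 animals, with an unadjusted p of 0.114. Its MYTHO array of animal B was at 5.63, against 6.65 to 7.02 on the other MYTHO arrays. Slc25a16 was at 0.35 with an unadjusted p of 0.0975, which was under 0.05 without scrmb D. Slc25a26, the carrier of S-adenosylmethionine, was at 0.11. Slc25a33 and Slc25a36, which carry pyrimidine nucleotides, were at 0.08 and 0.002, the peroxisomal Slc25a17 at 0.07 and the NAD carrier Slc25a51 at -0.09. None of these had an unadjusted p under 0.05 with all arrays.

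Glutathione and iron enter mitochondria through another set of carriers. Slc25a39 is required for glutathione import and lies on chromosome 11 from 102402969 to 102408675. With scrmb its log2 signals were 10.68, 10.18, 9.73 and 10.74, and with MYTHO 10.84, 11.35, 11.29 and 10.95. The lowest MYTHO array, of animal A, lay just above the highest scrmb array, of animal D, and the difference between legs was 1.17 and 1.56 in animals B and C but 0.16 and 0.21 in animals A and D. The log2 fold change was 0.77 with an SE of 0.24, and the limma adjusted p was 0.234, with an unadjusted p of 0.00809. Its unadjusted p stayed under 0.05 in 19 of 21 alternatives, failing without both legs of animal B or C, where the log2 fold change was 0.64 and 0.51. For Slc25a12, Slc25a22 and Slc25a42 it stayed under 0.05 in all 21. Slc25a40, the paralogue of Slc25a39, had a log2 fold change of -0.19 and was lower in 3 of 4 animals (limma adjusted p 0.819). The iron carriers Slc25a37 and Slc25a28, mitoferrin 1 and 2, were at 0.29 and -0.17. Slc25a37 ran from 0.09 without scrmb C to 0.50 without scrmb D, and Slc25a28 from -0.32 without MYTHO B to -0.017 without both legs of animal D. Slc25a37 was higher in the MYTHO leg of 4 of 4 animals, from 6.81, 7.43, 6.56 and 7.80 to 7.48, 7.62, 6.82 and 7.83, and the SD of the means of both legs over the animals was 0.49, against 0.27 for the differences between legs. Slc25a37 is also abundant in red cell precursors. The list of 7 erythroid genes had mean log2 signals of 9.22 to 10.45 in scrmb and 9.64 to 11.03 in MYTHO arrays, with none past an unadjusted p under 0.05. The part of blood in this result was not tested.

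**Figure D3:**
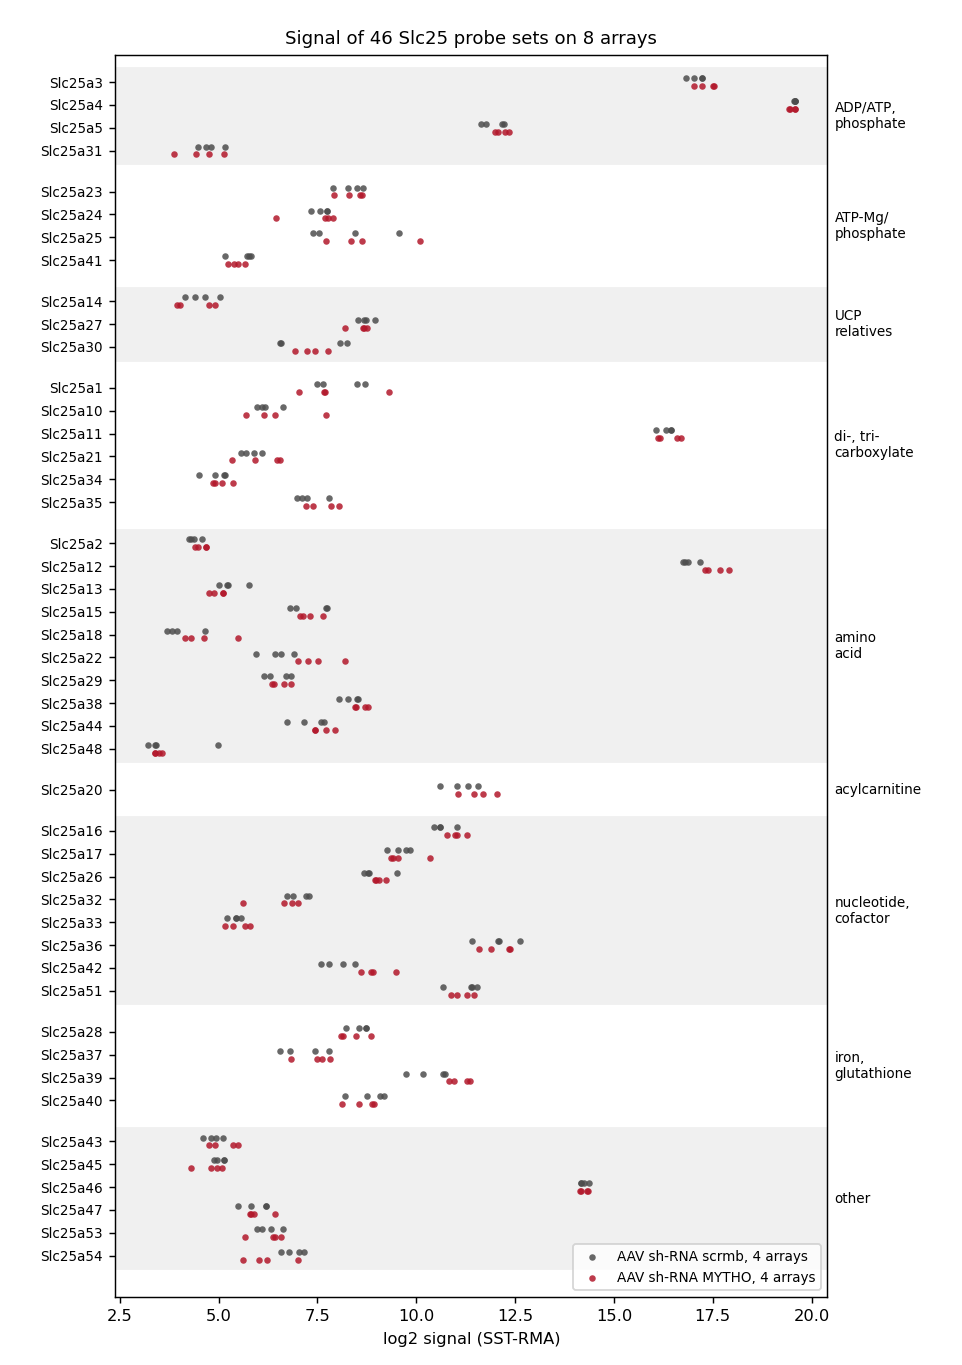
Log2 signal (x axis) of 46 Slc25 genes on 4 scrmb arrays (grey) and 4 MYTHO arrays (red), 1 row for each gene and grouped by the role of the carrier. Slc25a4 lies at 19.44 to 19.58, against the ceiling of 19.93, and in the rows of Slc25a12, Slc25a22, Slc25a42 and Slc25a39 all red points lie to the right of the grey points.

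Carriers of fuel molecules showed no change past the test. Slc25a20 takes acylcarnitines into the matrix for fatty acid oxidation. From 11.57, 11.02, 10.61 and 11.31 in scrmb, log2 signals were 11.06, 12.05, 11.70 and 11.45 in MYTHO, higher in animals B, C and D and lower in animal A. The log2 fold change was 0.44, with a 95% interval from -0.13 to 1.00. It ran from 0.22 without both legs of animal C to 0.75 without both legs of animal A, and the unadjusted p was under 0.05 without scrmb A, MYTHO A or both legs of animal A. Slc25a11, the oxoglutarate/malate carrier that completes the malate-aspartate shuttle with Slc25a12, had a log2 fold change of 0.07 with a 95% interval from -0.36 to 0.50. Mean signals of 16.32 ± 0.18 (SD, n = 4) with scrmb and 16.39 ± 0.30 (SD, n = 4) with MYTHO stood behind this.

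Slc25a1, which exports citrate for lipid synthesis, went in opposite directions in different animals. The scrmb legs of A, B, C and D gave 7.49, 8.70, 8.50 and 7.64 in log2 signal, and their MYTHO legs gave 9.31, 7.67, 7.70 and 7.04. The MYTHO leg of animal A was thus the highest of all 8, and the other MYTHO legs lay below their scrmb legs. Slc25a10, the dicarboxylate carrier, which is abundant in fat, was also highest there, at 7.72 against 5.70 to 6.62 on the other arrays. The log2 fold changes were -0.15 for Slc25a1 and 0.28 for Slc25a10 (limma adjusted p 0.924 and 0.806). The list of 5 adipocyte genes, none of them past an unadjusted p under 0.05, was also highest in that leg. Its mean log2 signal was 7.42, 8.38, 8.91 and 5.28 in the scrmb legs and 10.44, 5.63, 7.67 and 6.01 in the MYTHO legs. Adipoq, a defining adipocyte gene, ran from 4.72 in scrmb D to 13.10 in MYTHO A. The part of adipose tissue in the values of Slc25a1 and Slc25a10 was not tested. Without MYTHO A, the log2 fold change of Slc25a10 was -0.13 and that of Slc25a1 was -0.61. Without both legs of animal A, Slc25a1 was at -0.81 and had an unadjusted p under 0.05. Slc25a21, Slc25a34 and Slc25a35 had log2 fold changes of 0.26, 0.12 and 0.34, none with an unadjusted p under 0.05 with all arrays. Without MYTHO C, Slc25a21 was higher at an unadjusted p under 0.05.

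Of the 6 members without an assigned role group, 16.7% were lower at an unadjusted p under 0.05, beside 7.58% of all probe sets. None was higher, and the 1 lower was Slc25a54. RefSeq lists it as SCaMC-1like, a relative of the ATP-Mg/phosphate carriers, and it lies on chromosome 3 from 109080499 to 109116582, next to Slc25a24. With scrmb it had log2 signals of 7.03, 6.79, 7.15 and 6.57, and with MYTHO 6.22, 5.63, 7.02 and 6.03, lower in 4 of 4 animals, while the group ranges overlapped through animal C. The log2 fold change was -0.66 with an SE of 0.27 and a limma adjusted p of 0.357. Its unadjusted p of 0.0329 stayed under 0.05 in 13 of 21 alternatives, and not without scrmb A, scrmb C, MYTHO A, MYTHO B, MYTHO D or both legs of animal A, B or D. Slc25a46, which acts in the shape and division of mitochondria, had signals of 14.14 to 14.38 on all arrays and a log2 fold change of 0.00. Its 95% interval ran from -0.35 to 0.35. Slc25a43, Slc25a45, Slc25a47 and Slc25a53 had log2 fold changes of 0.27, -0.24, 0.06 and 0.01.

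Animal by animal, the shift of the family was small. The MYTHO leg was higher for 26, 27, 27 and 26 of the 47 members in animals A to D, or 55.3%, 57.4%, 57.4% and 55.3%, beside 48.3%, 50.5%, 47.0% and 48.3% of all probe sets. The median difference over the members was 0.09, 0.17, 0.14 and 0.02. Differences of more than 1 in log2 signal were found for 6.38%, 19.1%, 10.6% and 0% of the members, and for 6.99%, 9.18%, 8.53% and 3.25% of all probe sets. Animal D thus had the fewest large differences, in the family as over the whole array.

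Markers of slow fibres and of endothelial cells also had values that went with the groups, although none had an adjusted p under 0.05 in limma. The 8 slow-fibre genes had a mean log2 signal of 13.70, 11.91, 11.94 and 11.61 in the scrmb legs and 14.88, 14.43, 14.81 and 11.68 in the MYTHO legs, and 7 of the 8 were higher at an unadjusted p under 0.05, where 4.81% of all probe sets were. The group ranges of this mean overlapped through animal D. The leg difference of this list was 2.52 and 2.87 in animals B and C, 1.18 in animal A and 0.08 in animal D. From animal A to animal D, the leg differences were 0.15, 1.88, 1.05 and 0.76 for Slc25a42 and 0.61, 1.77, 1.30 and 0.42 for Slc25a22. They were 0.14, 0.81, 1.11 and 0.61 for Slc25a12 and 0.16, 1.17, 1.56 and 0.21 for Slc25a39. All 4 genes thus differed most in animals B and C, as the slow-fibre list did. These animals also had the most differences of more than 1 among all probe sets, 9.18% and 8.53%, against 6.99% in animal A and 3.25% in animal D. Between animals A and D, the slow-fibre list and Slc25a22 differed more in A, and Slc25a42, Slc25a12 and Slc25a39 more in D. The mean over the 4 endothelial genes ran from 10.27 to 10.86 in scrmb and from 11.05 to 11.28 in MYTHO arrays, and 2 of the 4 were higher at that p, beside the same 4.81%. The mean of the macrophage list ran from 6.97 to 7.35 and from 6.98 to 7.48, with 0 of 5 genes past that p. Of 6 markers of skeletal muscle, Myh1, a fast myosin, was higher at an unadjusted p of 0.0178, with a log2 fold change of 0.70 (limma adjusted p 0.295). Acta1 was at the ceiling on all 8 arrays and Tnnt3, Pvalb and Mylpf lay between 19.69 and 19.87, so these had little room to differ. Germ cell markers, which go with Slc25a31, had list means between 4.49 and 5.26. In a bulk sample, fewer cells of a type and less RNA per cell cannot be told apart. The part of fibre type and of vessels in the differences of Slc25a42, Slc25a22, Slc25a12 and Slc25a39 was not tested.

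**Figure D4:**
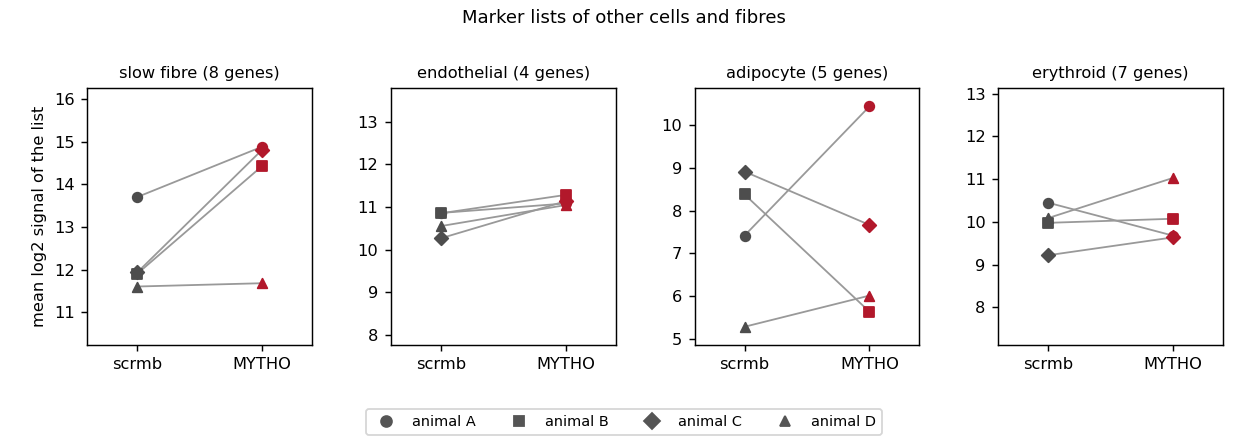
Mean log2 signal (y axis) of 4 marker lists in the scrmb and MYTHO legs (x axis), with a line joining both legs of an animal. The slow-fibre list is higher in the MYTHO leg of animals A, B and C and differs by 0.08 in animal D, the endothelial list is higher in all 4 animals, and the adipocyte list is highest in the MYTHO leg of animal A at 10.44.

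Other proteins complete the traffic through mitochondrial membranes. Carriers that keep their own symbols include the uncoupling proteins and the MTCH proteins, and 0 of 5 had an unadjusted p under 0.05, with 0 to 2 higher and 0 to 1 lower over the alternatives, beside 4.81% and 7.58% of all probe sets in the fit without a block. Ucp3, the uncoupling protein of muscle, and Ucp2 were higher in the MYTHO leg of 4 of 4 animals, with log2 fold changes of 0.71 and 0.54 and unadjusted p of 0.0686 and 0.0502. With animal as a block the unadjusted p was 0.0203 and 0.0294, and the limma adjusted p was 0.305 and 0.336. For Ucp3, the MYTHO array of animal B was at 12.87, against 11.21 to 11.35 on the other MYTHO arrays. Mtch2 was lower in 4 of 4 animals at -0.39 with an unadjusted p of 0.0762. Ucp1, the uncoupling protein of brown fat, lay between 3.45 and 4.58 on all arrays.

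Carriers reach the inner membrane through the TOM pore, small chaperones between the membranes and the TIM22 complex. Of the 16 genes of this route, 1 was higher (6.25%) and 0 lower at an unadjusted p under 0.05, beside 4.81% and 7.58% of all probe sets, with a median log2 fold change of 0.18. The count higher ran from 0 to 3 over the alternatives, with 3 under median centring and quantile normalization and 0 without MYTHO A, scrmb B, scrmb C, both legs of animal A or C, or saturated probe sets. Tomm5, a small TOM subunit, was at 9.96, 10.05, 9.72 and 10.14 in scrmb and 10.28, 10.44, 10.27 and 10.38 in MYTHO, a log2 fold change of 0.37 (unadjusted p 0.0460, limma adjusted p 0.391). Tomm70a, the TOM receptor for carriers, did not overlap between groups either but was lower, with means of 11.23 ± 0.11 (SD, n = 4) and 10.94 ± 0.19 (SD, n = 4). Its log2 fold change was -0.29 with an unadjusted p of 0.117.

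Of 18 genes for other transporters of mitochondrial membranes, 1 was higher and 1 lower at an unadjusted p under 0.05 (5.56% each), beside the same 4.81% and 7.58%, and the median log2 fold change was -0.13. The count lower was 2 without MYTHO A or both legs of animal A, and the count higher was 0 among the upper 50% of probe sets. Sfxn2, a sideroflexin, went from 5.30, 5.07, 5.09 and 5.04 in scrmb to 5.56, 5.68, 5.73 and 5.64 in MYTHO. These signals were dim, with 13877 to 17134 of the 22206 probe sets brighter on an array. The log2 fold change was 0.53, at a limma adjusted p of 0.217. Micu3, a regulator of the mitochondrial calcium uniporter, went from 10.36, 10.34, 10.18 and 10.40 to 9.99, 9.86, 9.11 and 9.80. Its log2 fold change was -0.63, with an unadjusted p of 0.0113 and a limma adjusted p of 0.257. Vdac2, a porin of the outer membrane, was lower in all MYTHO arrays, with means of 17.54 ± 0.06 (SD, n = 4) and 17.40 ± 0.02 (SD, n = 4). Its log2 fold change was -0.14 with an unadjusted p of 0.383. The pore of the uniporter, Mcu, was at -0.04, and the pyruvate carriers Mpc1 and Mpc2 were at 0.12 and -0.32, none with an unadjusted p under 0.05.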

How the data were processed

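Total RNA of 8 GAS muscles, 4 per group, was hybridised to Clariom S Mouse arrays. The authors deposited log2 signals computed by the Transcriptome Analysis Console 4.0.1 with default settings. Per the file headers these are SST-RMA values at gene level (background corrected, quantile normalized and summarised per probe set) with annotation release 36 on mm10. Each deposited log2 signal has 2 decimals and lies between 2.38 and 19.93, and 21 probe sets reached that ceiling on at least 1 array. Signals of different probe sets depend on their probes and were not compared as transcript levels. The authors' own averages, fold changes and p-values were not used.

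In R version 4.3.3, limma version 3.58.1 (lmFit and eBayes, two-sided) compared MYTHO with scrmb over all 22206 probe sets without a block, since the microarray section of the methods names no pairing term (paired tests are named elsewhere in them for related groups), with Benjamini-Hochberg adjustment. The fit was tested on simulated data. Column names give the group and an animal number, but not the replicate number of the labels. By the methods, same-numbered arrays are the 2 legs of one animal. Their deviations from the group means correlated at 0.003, -0.001, 0.135 and 0.087 in animals A to D. For a MYTHO and a scrmb array of different animals, the correlation ran from -0.167 to 0.104. The values thus do little to show the pairing by themselves. The precision is limited by the 4 arrays per group. Coordinates and promoters came from RefSeq (GRCm38.p6), matched by gene identifier. Mcub and other genes with newer symbols were matched by synonym.

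Members and gene lists were chosen with earlier results of these data known. Named were members with an unadjusted p under 0.05 or with no overlap between groups, the 5 of highest and the 3 of lowest mean signal, 15 carriers of known role, D230025D16Rik, and list genes by the same p or overlap. Other genes were named after their values were seen. The values of 1 member, which enters the counts, are not reported here. Alternatives were quantile normalization, median centring, the upper 75% or 50% of probe sets, eBayes with trend and robust, no saturated probe sets, a fixed or random block on animal, 1 probe set per symbol, other thresholds, and leaving out each array or, added after seeing the data, both legs of an animal.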

Additional observations from a re-analysis of the deposited data

Results flagged for a closer look

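For the named genes, the marker list means and the median over the Slc25 genes, 62 groups of 4 arrays were examined, and 5 had 1 array far from the other 3, where chance gives about 1 in 20. The scrmb array of animal A stood apart for Slc25a48, at 4.98 against 3.21 to 3.42, and without it the log2 fold change of this dim gene was 0.12. The scrmb array of animal D stood apart for Slc25a4, at 19.56 against 19.58 on the other 3, a gap of 0.02 in a table of 2 decimals. The MYTHO array of animal C stood apart for D230025D16Rik, at 8.80 against 8.08 to 8.20. The slow-fibre list mean stood apart in scrmb animal A, at 13.70 against 11.61 to 11.94, and in MYTHO animal D, at 11.68 against 14.43 to 14.88.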

How the results depend on the processing

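The 0 Slc25 genes with an adjusted p under 0.05 became 1, Slc25a12, under eBayes with trend and robust, which called 160 probe sets in all against 6, and stayed 0 under the other 21 alternatives, an adjusted p of 0.1 included. The 1 member at the cut-off of the study became 5 with a fold minimum of 1.5, which 7.44% of all probe sets reached, and 2 after median centring. Without single arrays or animals, this count ran from 0 to 2, the count of members higher at an unadjusted p under 0.05 from 3 to 6, the count lower from 0 to 1, and the median log2 fold change from 0.023 to 0.14, the last without both legs of animal B. With the replicate block by animal, 5 members were higher and 1 lower at an unadjusted p under 0.05, Slc25a25 being the addition, 0 passed after adjustment, and no other call of a member changed. The log2 fold change of D230025D16Rik kept its call throughout and ran from -3.09 to -2.69 in these fits. Of the 22 members named by rule, 6 reversed in sign without single arrays or animals, none of them called with all arrays and no block. Their log2 fold changes lay between -0.81 and 0.14 for Slc25a1, -0.17 to 0.54 for Slc25a10, -0.12 to 0.21 for Slc25a11, -0.0042 to 0.90 for Slc25a25, -0.02 to 0.20 for Slc25a33 and -0.48 to 0.12 for Slc25a48. The cause was not tested. Quantile normalization and median centring left the 4 genes without overlap. Each member had 1 probe set, so averaging the probe sets of a member left the median at 0.07. Dim members such as Slc25a48 and Slc25a31 fell out of the filtered sets, which held 39 and 32 members.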
